A study of Mus musculus with 20 samples.

Results

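Tumor cells sorted from enzalutamide-resistant bone metastases (Resist) were compared with tumor cells from naive bone metastases of the same mouse model. The libraries were chosen by their labels: 5 Resist and 5 naive libraries, all labelled batch 1, which are 10 of the 20 samples in a series of 4 groups. The cells were MycCaP-Bo, a bone-homing derivative of the mouse prostate cancer line MycCaP, which comes from a tumor driven by a Myc transgene, and they carried luciferase and the infrared fluorescent protein iRFP. They were injected into the heart of mice aged 4 to 6 weeks, 7 d before treatment started. Resist tumors had received the antiandrogen enzalutamide at 30 mg/kg by daily gavage for 18 d, and naive tumors had received vehicle, with no collection day in their labels. Cells of both groups were sorted as CD45- iRFP+, and the cells of 3 mice were pooled for each library, so that differences between single mice were not measured. All 10 libraries came from 1 cell line and share its Myc transgene and labels, so they show what happened in this line rather than across prostate tumors.

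Prostate cells depend on androgen, which switches on genes of growth and secretion, and enzalutamide is a drug that blocks this signal. Tumors that grow back under such drugs are known to restore the androgen response, to shift from an epithelial toward a mesenchymal or stem-like state, or to change how they handle matrix, nutrients and drugs, and the lists of genes used here follow these themes.

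Levels are given as FPKM, fragments scaled to transcript length and to the total of the library. The limma test was run on log2(FPKM + 1) for genes that averaged 1 FPKM or more across both groups. A call needed an adjusted p (Benjamini-Hochberg) below 0.05 together with more than a 1.5-fold change. Every log2 change below is Resist minus naive on that scale, which understates the change of genes with low levels. Libraries had 13062 to 13331 genes above 0 in the naive group and 13107 to 14056 in the Resist group, and the depth of each library is unknown. The p-values measure the spread between pooled libraries.

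The sorted cells were checked against markers of prostate epithelium and of other cells in bone. Krt8, a keratin of luminal epithelium, was read at 216 to 408 FPKM in naive and 101 to 272 FPKM in Resist libraries. Krt18, the usual partner of Krt8, and Cdh1, which encodes E-cadherin, were listed under 1 FPKM in every library, so 2 defining epithelial genes were at or near 0 in these values. Macrophage genes were scarce: of 23 with a value, 15 stayed under 1 FPKM in every library, among them Adgre1 and Csf1r, and the 23 summed to 25.4 to 131 FPKM in naive and 13.6 to 76.5 FPKM in Resist libraries. Of 20 neutrophil genes, 16 were tested and limma called 0, none of them at an unadjusted p under 0.05, while a comparison with the noise between libraries of a group called 6 lower. All 20 summed to 219.5 to 1400.0 FPKM in naive and 86.7 to 703 FPKM in Resist libraries, so the ranges overlapped. The log2 changes of all 16 tested neutrophil genes lay below 0, with a median of -0.46. Genes of T lymphocytes and NK cells all stayed under 1 FPKM, and 13 of 16 endothelial genes did. In the remaining lists of other cells, Hba-a1, a globin of red cells with near-identical copies, rose by 0.78, and Nfatc1, a factor of osteoclasts, fell by 0.68.

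Resist library 5 stood apart from the other 4 Resist libraries. On the first principal component of the tested genes, which held 46.7% of the variance, naive libraries lay between -19.8 and -14.1, Resist libraries 1 to 4 between 15.7 and 26.3, and Resist library 5 at 1.18, between the groups. Counts of the lists are therefore also given without it where it changed them. Of the 184 called genes that the text draws on, 137 stayed called whichever single library was left out, and 3 more stayed called where they were tested but fell under the filter on low levels in some leave-outs.

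**Figure D1:**
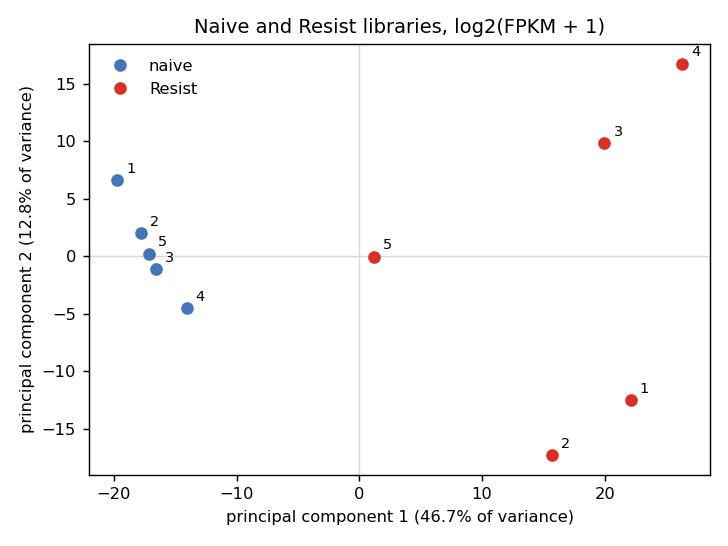
Each point is 1 library placed by its first (x axis, 46.7% of the variance) and second (y axis, 12.8%) principal component of log2(FPKM + 1) over the tested genes, numbered by replicate within its group. Naive libraries form a tight group on the left, and Resist library 5 falls between it and the other Resist libraries.

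Of 10119 genes tested, 531 were called higher in Resist tumor cells, 5.25% of the genes tested, and 112 were called lower, 1.11%. Rises therefore made up 82.6% of the calls. After quantile normalization, which gives every library the same distribution of values, 381 were called higher and 167 lower, and rises made up 69.5%. Without Resist library 5, 683 genes were called higher, 6.75%, and 157 lower, 1.55%. In 12.8% of the genes tested all Resist libraries lay on 1 side of all naive libraries, and the median log2 change over all genes tested was 0.03. The median rise among called genes was 0.87 and the median fall -0.80 on the log2 scale, so most calls were changes of less than 2-fold: 191 rises and 28 falls were larger.

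The 15 largest rises among genes whose libraries did not overlap came from several families. Serping1, the inhibitor of the C1 complement protease, was read at 0.25, 1.01, 0.55, 1.31 and 0.16 FPKM in naive libraries 1 to 5 and 13.3, 14.6, 5.84, 7.71 and 23.1 FPKM in Resist libraries 1 to 5. It rose by 2.98 (SE 0.31, limma adjusted p = 0.000166), and no Resist library came near a naive one. Cps1, the first enzyme of the urea cycle, was read at 0.23, 0.17, 0.28, 0.62 and 0.66 FPKM in naive libraries 1 to 5 and 7.18, 5.28, 10.4, 8.31 and 4.32 FPKM in Resist libraries 1 to 5. It rose by 2.50 (SE 0.20, limma adjusted p = 3.34e-05), again without overlap. Serping1 and Cps1 averaged 0.66 and 0.39 FPKM in naive libraries and passed the filter only through the Resist group. Both were therefore bound to be higher, and their separation is a description. Other rises in this set were those of Itih2 (2.14), an inter-alpha-trypsin inhibitor chain that binds hyaluronan, Fcgrt (2.05), the neonatal Fc receptor, Angptl2 (1.99), a secreted angiopoietin-like protein, Eml1 (1.97), a microtubule-binding protein, Dpep1 (1.91), a membrane dipeptidase, and St3gal4 (1.88), a sialyltransferase.

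The largest falls were smaller than the largest rises. Fga, a fibrinogen chain, was read at 10.9, 12.1, 12.99, 17.8 and 73.7 FPKM in naive libraries 1 to 5 and 1.99, 6.35, 4.80, 6.48 and 3.72 FPKM in Resist libraries 1 to 5, and fell by 1.88 (SE 0.45, limma adjusted p = 0.0132). Naive library 5 was far above the other naive libraries, yet every Resist library lay below all of them. Fgg, another fibrinogen chain, fell by 1.49, whereas Fgb, the third chain and the one with the highest level, had a log2 change of 0.09 and was not called. Cuzd1, a secretory protein, fell by 1.47, Rgcc, a regulator of the cell cycle, by 1.32, Lcn12, a lipocalin, by 1.31, and Tmod1, which caps actin filaments, by 1.16. The uncharacterized gene 2610528J11Rik fell by 1.27.

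Genes were then read in 32 lists that hold 1010 tested genes, each gene counted once, of which 121 were called higher and 51 lower. The share of a list's tested members called in each direction is set beside the 5.25% and 1.11% of all genes tested, with no test of the list. Members that passed the filter only because 1 group expressed them were bound to differ, so shares in short lists of weakly expressed genes are descriptions. Called members that averaged under 1 FPKM in naive libraries passed only through the Resist group. Among them were Serping1, Cps1, Cfb, Il33, Csf1, Zeb2, Itgb3, Col18a1, P4ha3 and Thbs3. Others were Mmp11, Synpo, Ablim1, Muc4, Plxnd1, Sema4c, Fgfr3, Gstm2 and Slc39a4. The rises of these genes are descriptions too. From each list the 6 largest calls and the gene with the highest level were named by rule, and further called members were chosen after their values were seen.

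**Figure D2:**
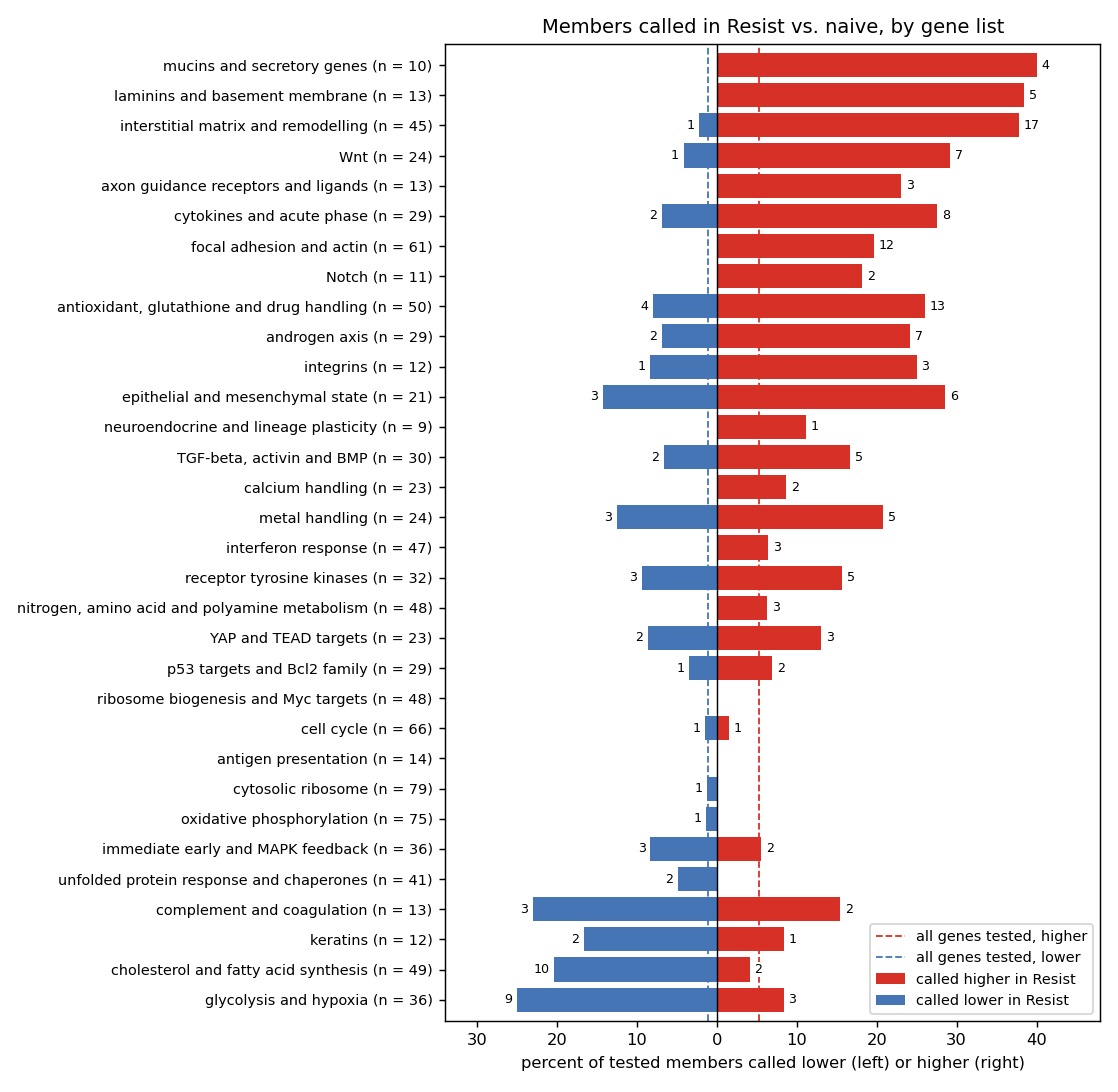
Each bar gives the percent of a list's tested members called higher (right, red) or lower (left, blue) in Resist vs. naive tumor cells, with the number of called genes at its end where it is above 0 and the number tested in brackets. Dashed lines mark the 5.25% and 1.11% of all genes tested, and matrix, laminin and mucin lists lie at the top with glycolysis and cholesterol lists at the bottom.

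Hoxb13, a homeobox factor of the prostate lineage, was read at 1.99, 3.00, 2.81, 2.85 and 2.66 FPKM in naive libraries 1 to 5 and 6.59, 6.35, 6.41, 6.07 and 7.27 FPKM in Resist libraries 1 to 5, and rose by 1.05 (SE 0.10, limma adjusted p = 6.74e-05). No Resist library came near the naive range. Nr3c1, the glucocorticoid receptor, was under 1 FPKM in every library and was not tested.

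Androgen-responsive genes did not move as 1 block. Of 35 listed, 22 were tested, 5 were called higher and 2 lower, with a median of -0.02 (6 and 3 without Resist library 5). Steap4, a metalloreductase, was read at 12.7, 12.8, 8.39, 17.3 and 11.2 FPKM in naive libraries 1 to 5 and 53.5, 52.5, 38.7, 22.3 and 35.1 FPKM in Resist libraries 1 to 5 and rose by 1.59 (SE 0.23, limma adjusted p = 0.000932). Mme, the membrane peptidase neprilysin, rose by 0.95, Maf, a basic leucine zipper factor, by 0.85, Steap2, a second metalloreductase, by 0.71, and Abcc4, an efflux pump, by 0.66. Cited1, a transcriptional coactivator, fell by 1.56. Sgk1, a serum- and glucocorticoid-induced kinase and the member with the highest level, stood at 491 to 555 FPKM in naive and 398 to 714 FPKM in Resist libraries, with a log2 change of -0.04 that was not called.

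Most mesenchymal genes that could be measured were higher, while several classical repressors of E-cadherin were near 0. Of 17 mesenchymal genes listed, 6 were tested and 5 were called higher, with or without Resist library 5. Of these, Zeb2 averaged 0.81 FPKM in naive libraries and passed the filter only through the Resist group, so it was bound to be higher. Vim, the intermediate filament vimentin, was read at 12.7, 6.83, 11.1, 18.9 and 42.8 FPKM in naive libraries 1 to 5 and 121, 119, 102, 67.5 and 56.5 FPKM in Resist libraries 1 to 5. It rose by 2.47 (SE 0.38, limma adjusted p = 0.0014) without overlap, and naive library 5 and Resist library 5 came closest to each other. Axl, a receptor tyrosine kinase tied to drug resistance in many tumors, was read at 1.55, 0.83, 1.99, 2.43 and 1.09 FPKM in naive libraries 1 to 5 and 9.82, 11.6, 14.4, 12.5 and 4.90 FPKM in Resist libraries 1 to 5, and rose by 2.14 (SE 0.25, limma adjusted p = 0.000253). The transcription factors Zeb2 and Twist2 rose by 1.11 and 1.05, and S100a4, a calcium-binding protein of motile cells, by 1.00. Zeb1, Snai1, Snai2 and Twist1, chosen after their values were seen, stayed under 1 FPKM in every library.

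Epithelial genes gave calls in both directions. Of 15 tested, 1 was called higher and 3 lower, with a median log2 change of -0.08 (1 and 2 without Resist library 5). Rab25, a small GTPase of epithelial recycling, fell by 0.84, Ovol1, a factor that holds cells in the epithelial state, by 0.74, and the claudin Cldn4 by 0.98. The call of Cldn4 was lost in 9 of the 10 fits that left out 1 library, Resist library 5 among them, with a change of at least -0.72 in size. Tjp3, a tight-junction scaffold, rose by 0.76. Spint2, a protease inhibitor and the epithelial gene with the highest level, had a log2 change of 0.04 and was not called. Among 12 tested keratins, Krt6a, a keratin of stressed and basal epithelium, was read at 56.8, 81.9, 126, 81.7 and 48.5 FPKM in naive libraries 1 to 5 and 12.98, 17.3, 23.3, 28.6 and 40.5 FPKM in Resist libraries 1 to 5, and fell by 1.67 (SE 0.29, limma adjusted p = 0.00293). Krt16 fell by 1.31 and Krt4 rose by 1.06. The call of Krt16 was lost in 9 of the 10 leave-outs, Resist library 5 among them, and that of Krt4 in 3, where the changes came down to -1.07 and 0.83. Krt7, the keratin with the highest level, differed by 0.06, and Krt8 by -0.79 (SE 0.28, limma adjusted p = 0.0678). Neither was called. Without Resist library 5, Krt8 was called lower, with a change of -0.91 (limma adjusted p = 0.0404).

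Among genes of the interstitial matrix, rises outnumbered falls. Of 86 listed, 45 were tested and 17 were called higher and 1 lower (17 and 2 without Resist library 5), and the median log2 change was 0.60. By role, 9 of 19 tested glycoproteins, 6 of 20 proteases, inhibitors and crosslinkers, and 2 of 6 collagens were called higher. Among them, Timp1, Mmp11 and Fbln2 rose by 0.66, 0.82 and 0.71. Their calls were lost in 9 of 10, 7 of 9 and 6 of 10 leave-outs with a value, with changes down to 0.43, 0.78 and 0.56. Efemp1, the fibulin-like glycoprotein fibulin-3, was read at 5.80, 4.57, 7.81, 7.60 and 4.00 FPKM in naive libraries 1 to 5 and 26.5, 35.9, 31.7, 32.1 and 19.7 FPKM in Resist libraries 1 to 5, and rose by 2.13 (SE 0.18, limma adjusted p = 4.94e-05). Tnxb, or tenascin-X, was read at 13.9, 16.6, 14.2, 19.6 and 13.6 FPKM in naive libraries 1 to 5 and 73.8, 34.1, 47.3, 62.0 and 37.2 FPKM in Resist libraries 1 to 5, and rose by 1.60 (SE 0.19, limma adjusted p = 0.00031). In both genes the lowest Resist library lay above the highest naive one. The lysyl oxidases Loxl3 and Loxl2, which crosslink collagen, rose by 1.73 and 1.20, and P4ha3, a collagen prolyl hydroxylase, by 1.30.

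Other matrix genes were called as well. Over the proteases, inhibitors and crosslinkers as a group, 11 changes lay above 0 and 9 below, with a median of 0.05. Ltbp1 and Ltbp4, which store latent TGF-beta in the matrix, rose by 1.21 and 1.09, Sparc by 1.31, Thbs3 by 1.15, Sdc1 by 0.77, Timp2 by 0.97 and the hyaluronan receptor Cd44 by 0.65. Col5a1, a chain of fibril-nucleating collagen V, and Col12a1, a chain of fibril-associated collagen XII, rose by 1.73 and 0.99. Plod2, a lysyl hydroxylase, was the 1 member that fell, by 1.19. Fn1, or fibronectin, was read at 839, 969, 789, 1155 and 1092 FPKM in naive libraries 1 to 5 and 1196, 1519.6, 1371, 1573 and 1230.4 FPKM in Resist libraries 1 to 5. Its groups did not overlap and its adjusted p was 0.0103 in limma, but its log2 change of 0.52 was under the fold threshold. Spp1, or osteopontin, had the highest level, from 1269 to 2139 FPKM in naive to 1800.0 to 5819.6 FPKM in Resist libraries, and was not called, with Resist library 2 far above the others.

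Markers of osteoblasts and stromal cells, which make much of the matrix in bone, had a median change in the same direction. Of 20 such genes, 6 were tested, limma called 0 (1 higher without Resist library 5) and the noise comparison called 0. At an unadjusted p under 0.05 in limma, 3 were higher. The median log2 change of the 6 was 0.67 (0.57 without Resist library 5). All 20 summed to 21.5 to 27.1 FPKM in naive and 25.9 to 52.8 FPKM in Resist libraries, and 12 of them, among them Pdgfrb, Dcn and Lum, stayed under 1 FPKM in every library. Col1a1, chosen after its values were seen, was read at 1.18, 3.61, 1.61, 1.42 and 1.37 FPKM in naive libraries 1 to 5 and 3.40, 0.17, 7.78, 4.86 and 13.5 FPKM in Resist libraries 1 to 5. It was highest in Resist library 5 and lowest in Resist library 2. The part of stromal cells in the matrix result was not tested. In bulk RNA of this kind, fewer cells of a type and less RNA per cell cannot be told apart.

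The receptors for these proteins changed unevenly. Of 12 integrin subunits tested, 3 were called higher and 1 lower (4 and 1 without Resist library 5). Itga5, the alpha chain of the fibronectin receptor, was read at 6.97, 7.28, 9.37, 8.96 and 7.91 FPKM in naive libraries 1 to 5 and 27.1, 18.0, 28.8, 21.3 and 13.4 FPKM in Resist libraries 1 to 5, and rose by 1.28 (SE 0.17, limma adjusted p = 0.000749). Itga3, a laminin-binding chain, rose by 1.03 and Itgb3 by 0.80, whereas Itga6, another laminin-binding chain, fell by 0.79 (SE 0.14, limma adjusted p = 0.00287). Itgb1, the shared beta chain with the highest level, had a log2 change of 0.12 and was not called. Among 13 tested laminins and basement membrane genes, 5 were called higher and 0 lower (5 and 1 without Resist library 5), with 1 lower at an unadjusted p under 0.05 and 0 lower by the noise comparison. Lamb2 was read at 35.8, 41.2, 39.4, 46.7 and 42.5 FPKM in naive libraries 1 to 5 and 76.7, 55.9, 67.4, 66.7 and 52.0 FPKM in Resist libraries 1 to 5 and rose by 0.61 (SE 0.10, limma adjusted p = 0.00252), and Lama5 rose by 0.71. Lamb2 was just over the fold threshold and was not called without naive library 1 or Resist library 1, with changes down to 0.54. Of 6 laminin chains tested, 2 were called higher, and the median of the 6 was -0.23. Col4a5, Npnt and Col18a1, other parts of the basement membrane, rose by 1.17, 1.09 and 0.91. Dag1, or dystroglycan, had the highest level and a log2 change of 0.04.

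Several actin-binding genes rose. Of 36 actins and actin-binding proteins tested, 11 were called higher and 0 lower (12 and 0 without Resist library 5). Tmod1, the actin-capping gene named above that fell by 1.16, was not on this list, so the 0 holds for the listed genes only. In the whole list with focal adhesion genes, 4 of 61 were lower at an unadjusted p under 0.05 and 0 by the noise comparison. Aif1l, an actin-bundling protein, was read at 2.89, 3.18, 4.59, 3.60 and 2.13 FPKM in naive libraries 1 to 5 and 44.1, 35.1, 25.7, 35.1 and 13.6 FPKM in Resist libraries 1 to 5, and rose by 2.82 (SE 0.26, limma adjusted p = 6.97e-05). Flnc, or filamin C, was read at 6.07, 6.83, 7.09, 8.16 and 6.18 FPKM in naive libraries 1 to 5 and 25.4, 19.9, 23.5, 28.3 and 21.5 FPKM in Resist libraries 1 to 5, and rose by 1.65 (SE 0.10, limma adjusted p = 1.31e-05). Both groups of Flnc libraries were tight and far apart. Cald1 (caldesmon) rose by 2.08, Synpo (synaptopodin) by 1.69, Mylk (myosin light chain kinase) by 1.69, Ablim1 by 1.41, Tpm1 (tropomyosin) by 0.92, Actn1 (alpha-actinin) by 0.75 and Flna by 0.64. Flna was not called without Resist library 4, where its change was 0.51. Tagln and Lima1, which each rose by 0.59, lost their calls in 6 and 7 of the 10 leave-outs, with changes down to 0.52 in both. Actg1, the cytoplasmic actin with the highest level, had a log2 change of -0.22 and was not called.

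Focal adhesion genes had few calls. Of 25 tested, only Tns2, or tensin-2, was called, with a rise of 1.11, although 20 of the 25 changes lay above 0. Src, the tyrosine kinase at these sites, was read at 6.10, 8.62, 8.73, 6.71 and 7.01 FPKM in naive libraries 1 to 5 and 11.4, 9.89, 9.88, 12.2 and 6.66 FPKM in Resist libraries 1 to 5. Its groups overlapped, and its log2 change of 0.37 was not called (SE 0.14, limma adjusted p = 0.0893). Without Resist library 5, 3 focal adhesion genes were called higher.

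**Figure D3:**
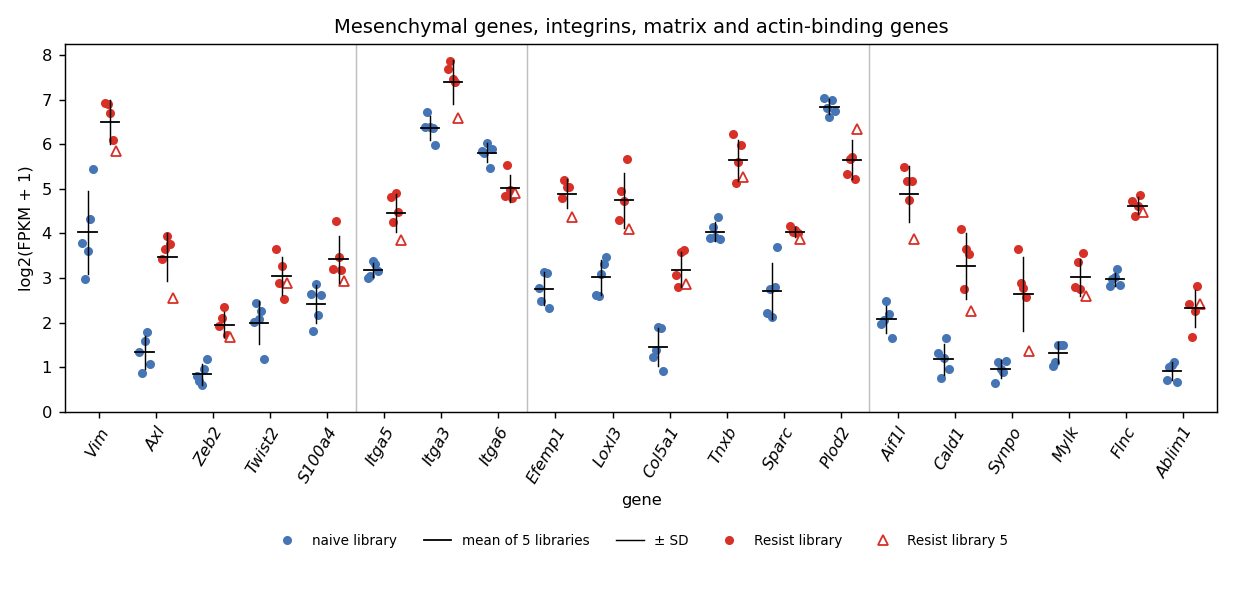
Levels of 20 genes as log2(FPKM + 1) on the y axis, with 1 point per library, a line at each group's mean and a bar of 1 SD to each side (n = 5 per group). From left to right stand mesenchymal genes, integrins, matrix genes and actin-binding genes, and the open triangle, Resist library 5, lies toward the naive libraries for Vim, Axl and Aif1l.

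Growth factor pathways gave calls at single ligands and receptors. In the TGF-beta, activin and BMP list, 30 genes were tested, 5 were called higher and 2 lower (5 and 1 without Resist library 5), and 14 changes lay above 0 and 16 below. The ligands split: Tgfb2 was read at 75.2, 88.2, 77.7, 79.4 and 85.0 FPKM in naive libraries 1 to 5 and 21.4, 38.7, 40.1, 27.0 and 53.3 FPKM in Resist libraries 1 to 5, and fell by 1.21 (SE 0.19, limma adjusted p = 0.00148), whereas Tgfb3 rose by 1.02 and Bmp1, a protease that processes procollagen and frees BMP ligands, by 1.27. Both groups of Tgfb2 libraries were clearly separate. Gdf15, a stress-induced member of the family, fell by 0.77, a call lost in 8 of the 10 leave-outs, Resist library 5 among them, where its change came down to -0.58. Bmpr1b, a BMP receptor, Smad6, an inhibitor of BMP signaling, and Id1, a BMP target, rose by 0.82, 0.89 and 0.73. Inhba, the chain that forms activin A, averaged under 1 FPKM and was not tested.

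Changes of Wnt pathway genes lay mostly above 0. Of 24 tested, 7 were called higher and 1 lower (7 and 1 without Resist library 5), and 22 of 24 changes lay above 0. After quantile normalization 20 did, and 5 were called higher. Fzd4, a receptor, was read at 1.70, 2.53, 1.83, 1.55 and 1.80 FPKM in naive libraries 1 to 5 and 4.90, 7.28, 6.06, 8.47 and 3.94 FPKM in Resist libraries 1 to 5 and rose by 1.28 (SE 0.17, limma adjusted p = 0.000522). The ligands Wnt4 and Wnt5a rose by 1.16 and 0.80, the coreceptor Lrp5 by 0.97, and Porcn, which attaches lipid to Wnt proteins, by 0.82. Wnt4 lost its call without naive library 3, Resist library 1 or Resist library 3 (down to 0.84) and Porcn without naive library 1 (0.65). Apcdd1, an inhibitor of the pathway and a known Wnt target, was read at 15.6, 30.6, 14.9, 26.3 and 43.5 FPKM in naive libraries 1 to 5 and 3.15, 9.69, 12.4, 7.62 and 5.94 FPKM in Resist libraries 1 to 5, and fell by 1.63 (SE 0.33, limma adjusted p = 0.00594). No Resist library reached the lowest naive one. Ctnnb1, or beta-catenin, had a log2 change of 0.05.

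Among receptor tyrosine kinases and their ligands, 32 genes were tested and 5 were called higher and 3 lower (6 and 4 without Resist library 5). Fgfr3 was read at 0.17, 0.11, 0.48, 0.35 and 0.22 FPKM in naive libraries 1 to 5 and 10.8, 0.96, 4.11, 3.93 and 1.48 FPKM in Resist libraries 1 to 5, and rose by 1.77 (SE 0.38, limma adjusted p = 0.00842). It was nearly silent in naive cells, and its Resist libraries ranged widely. Ptk7, a kinase-dead receptor of planar polarity, rose by 1.49, Ephb4 by 1.14 and Btc, a ligand of the EGF receptor, by 1.03. Epha1, Efnb2 and Vegfa fell by 0.70, 0.69 and 0.67. Sema3f, Plxnd1 and Sema4c, ligands of axon guidance and their receptor family, rose by 1.57, 0.85 and 0.61. Of 11 Notch pathway genes tested, the receptor Notch4 and the coactivator Maml2 rose, by 0.85 and 0.69, and Notch2, the one with the highest level, had a change of 0.05.

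Transcription factors of the immediate early response and their feedback genes gave 2 rises and 3 falls among 36 tested (2 and 4 without Resist library 5). Fosb and Phlda1 rose by 0.76 and 0.75, and Fosl2, Klf10 and Errfi1, a feedback inhibitor of the EGF receptor, fell by 0.66, 0.65 and 0.76. The calls of Fosb, Klf10 and Errfi1 were lost in 6, 7 and 4 of the 10 leave-outs, with changes down to 0.63, -0.50 and -0.58. Targets of YAP and TEAD were likewise split, with 3 of 23 higher, among them Nt5e (1.14) and Ptpn14 (0.89), and 2 lower (5 and 2 without Resist library 5). F3, or tissue factor, was 1 of the lower ones and was read at 495, 473, 564, 594 and 491 FPKM in naive libraries 1 to 5 and 361, 236, 232, 232 and 364 FPKM in Resist libraries 1 to 5. It fell by 0.90 (SE 0.14, limma adjusted p = 0.00151).

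Secreted immune proteins changed in both directions. Of 29 cytokines, chemokines and acute phase genes tested, limma called 8 higher and 2 lower (10 and 2 without Resist library 5). Il33, an alarmin stored in the nucleus, was read at 0.46, 0.18, 0.80, 0.76 and 1.43 FPKM in naive libraries 1 to 5 and 7.34, 4.97, 7, 5.85 and 2.08 FPKM in Resist libraries 1 to 5, and rose by 1.86 (SE 0.27, limma adjusted p = 0.000936). Csf1, the growth factor of macrophages, was read at 0.60, 0.30, 0.86, 0.88 and 0.33 FPKM in naive libraries 1 to 5 and 5.61, 1.83, 5.16, 2.60 and 1.29 FPKM in Resist libraries 1 to 5, and rose by 1.32 (SE 0.28, limma adjusted p = 0.00679). Neither had overlapping groups, and Resist library 5 was the lowest Resist library in both. Il33 and Csf1 averaged 0.73 and 0.59 FPKM in naive libraries and passed the filter only through the Resist group. Both were therefore bound to be higher, and their separation is a description. Cxcl17, a mucosal chemokine, rose by 2.11, Lbp, which binds lipopolysaccharide, by 1.28, Socs3, a brake on cytokine receptors, by 1.06, and Cx3cl1 by 0.81. Cx3cl1 lost its call in 4 of the 10 leave-outs, with changes down to 0.60. Resist library 5 was inside the naive range for Cxcl17. Mif had the highest level of the list and a log2 change of -0.49, under the fold threshold.

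Il1b was the cytokine with the largest fall. It was read at 18.3, 13.6, 9.45, 10.3 and 11.9 FPKM in naive libraries 1 to 5 and 0.95, 2.13, 3.61, 5.69 and 7.78 FPKM in Resist libraries 1 to 5, and fell by 1.60 (SE 0.34, limma adjusted p = 0.00761). Ccl28, a mucosal chemokine, fell by 1.36. Neutrophils are a rich source of Il1b, and the median of the summed neutrophil genes was 528 FPKM in naive and 290.0 FPKM in Resist libraries. The sum was high in naive library 1 at 1400.0 FPKM and in Resist library 4 at 703 FPKM, and Cd52 was the only general leukocyte gene called, lower by 0.89. The part of these cells in the fall of Il1b was not tested.

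Complement and coagulation genes gave calls in both directions. Of 23 complement genes with a value, 4 were tested, and Serping1 and Cfb rose, Cfb by 0.84. Both averaged under 1 FPKM in naive libraries, at 0.66 and 0.45 FPKM, and passed the filter only through the Resist group. They were therefore bound to be higher, and their count is no result about the list. Of 9 coagulation genes tested, Fga, Fgg and F3 fell. The coagulation genes had 4 changes above 0 and 5 below, with a median of -0.04 (1 called higher and 3 lower without Resist library 5). Among secretory genes of mucous epithelium, 4 of 10 tested were called higher and 0 lower (3 and 0 without Resist library 5). Of the 10 changes, 6 lay above 0 and 4 below, down to -1.04. At an unadjusted p under 0.05 in limma, 5 were higher and 1 lower, and the noise comparison called 3 higher and 2 lower. Muc5b, a gel-forming mucin, was read at 45.8, 43.5, 33.0, 66.2 and 41.3 FPKM in naive libraries 1 to 5 and 199.6, 57.0, 131, 358 and 103 FPKM in Resist libraries 1 to 5, and rose by 1.63 (SE 0.38, limma adjusted p = 0.0123). Its lowest Resist library lay within the naive range. Muc4, a membrane mucin, rose by 0.86, Crispld2 by 1.29 and Spink8 by 1.12. Spink8 lost its call in 7 of the 10 leave-outs, Resist library 5 among them, with changes down to 0.89. Psca, the prostate stem cell antigen, had the highest level of this list and a log2 change of 0.65 that was not called.

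Many genes induced by low oxygen were lower in Resist cells. Of 21 hypoxia genes listed, 16 were tested, 8 were called lower and 1 higher, with a median of -0.60 (9 and 1 without Resist library 5). Epas1, which encodes the oxygen-regulated factor HIF-2 alpha, was read at 39.8, 42.6, 44.1, 35.0 and 33.5 FPKM in naive libraries 1 to 5 and 10.1, 20.6, 11.9, 9.80 and 19.4 FPKM in Resist libraries 1 to 5, and fell by 1.44 (SE 0.19, limma adjusted p = 0.000616). Bnip3, a mitophagy receptor, was read at 423, 405, 320.1, 542 and 441 FPKM in naive libraries 1 to 5 and 236, 252, 207, 158 and 383 FPKM in Resist libraries 1 to 5, and fell by 0.82 (SE 0.20, limma adjusted p = 0.0143). Resist library 5 lay within the naive range for Bnip3 and below it for Epas1. Ero1a, an oxidase of the endoplasmic reticulum, fell by 0.81, Ankrd37 by 0.72, Vegfa, the angiogenic growth factor, by 0.67, Higd1a by 0.65 and Ak4 by 0.61. The call of Ak4 was lost without naive library 1 or Resist library 4, with changes down to -0.51. Plod2, named above, was the eighth. Ankrd37 lost its call in 8 of the 10 leave-outs, with changes down to -0.58. Car9, a carbonic anhydrase widely used as a hypoxia marker, went the other way, from 1.88 to 4.21 FPKM in naive to 4.30 to 6.38 FPKM in Resist libraries. It rose by 0.68, and was not called without naive library 2, where its change was 0.55.

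Glycolysis genes leaned the same way at smaller size. Of 20 tested, 17 changes lay below 0 with a median of -0.34, and Slc2a1, the glucose transporter GLUT1, was the one called lower. Slc2a1 was read at 230.2, 261, 174, 312 and 254 FPKM in naive libraries 1 to 5 and 113, 125, 111, 96.2 and 201 FPKM in Resist libraries 1 to 5, and fell by 0.95 (SE 0.19, limma adjusted p = 0.00541). Pkm, the pyruvate kinase with the highest level, had a log2 change of -0.27, under the fold threshold. Pfkm and Pfkfb3, which act at the phosphofructokinase step, rose by 0.68 and 0.60. Pfkfb3 lost its call in 9 of the 10 leave-outs, with changes down to 0.53. Without Resist library 5, 4 glycolysis genes were called lower and 1 higher.

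The changes of cholesterol genes all lay on the same side. Of 22 cholesterol genes tested, all 22 changes lay below 0, 9 were called lower and 0 higher, and the median was -0.45. The same 9 genes were called without Resist library 5. In each of them the 5 Resist libraries lay below all naive libraries. Groups did not overlap in 12.8% of all genes tested and in 78 of the 112 genes called lower. Separation thus mostly comes with a call and adds little to it. Sqle, squalene epoxidase, was read at 43.3, 46.2, 49.6, 54.0 and 49.9 FPKM in naive libraries 1 to 5 and 26.6, 31.4, 21.4, 19.7 and 34.6 FPKM in Resist libraries 1 to 5, and fell by 0.86 (SE 0.14, limma adjusted p = 0.00151). Idi1, which makes dimethylallyl diphosphate, was read at 24.9, 22, 26.7, 23.6 and 25.1 FPKM in naive libraries 1 to 5 and 12.8, 18.1, 8.89, 10.9 and 16.6 FPKM in Resist libraries 1 to 5, and fell by 0.85 (SE 0.16, limma adjusted p = 0.0035). Resist libraries 2 and 5 were the highest of their group in both genes and still under the naive range. Msmo1, Cyp51, Fdps and Fdft1, enzymes along the same route, fell by 0.76, 0.72, 0.60 and 0.59. The calls of Fdps and Fdft1, both near the fold threshold, were each lost in 4 of the 10 leave-outs, with changes down to -0.55 and -0.53. Insig1, which holds the pathway's SREBP factors in check, fell by 0.78.

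Fatty acid genes had few calls. Of 27 tested, 2 were called higher and 1 lower, with a median of -0.04 (4 and 3 without Resist library 5). Plin2, which coats lipid droplets, rose by 0.75 and the desaturase Fads3 by 0.73, and Dgat2, which makes triglyceride, fell by 0.65. Plin2 lost its call in 5 of the 10 leave-outs and Dgat2 without Resist library 2, with changes down to 0.61 and -0.54. Scd2, a desaturase with the highest level in the list, had a log2 change of -0.19 and was not called.

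Metal-handling genes included both metallothioneins, which fell evenly across libraries. Metallothioneins are small cysteine-rich proteins that bind zinc and copper, and metal-loaded MTF-1 switches them on through metal response elements. The promoter windows of both genes are shown because both fell together and hold several matches to the letters of these elements. They are RefSeq sequences of GRCm38.p6 from 250 bases before to 30 bases after the annotated start, both on the plus strand, Mt1 at chr8:94178839-94179118 and Mt2 at chr8:94172368-94172647, with matches to TGCACNC or TGCGCNC on either strand in capitals.
Mt1: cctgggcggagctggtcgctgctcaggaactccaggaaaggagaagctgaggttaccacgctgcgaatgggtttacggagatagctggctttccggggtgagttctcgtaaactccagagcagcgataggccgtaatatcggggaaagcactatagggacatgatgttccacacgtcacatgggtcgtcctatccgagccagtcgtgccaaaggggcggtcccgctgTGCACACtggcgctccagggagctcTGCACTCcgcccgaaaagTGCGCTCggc
Mt2: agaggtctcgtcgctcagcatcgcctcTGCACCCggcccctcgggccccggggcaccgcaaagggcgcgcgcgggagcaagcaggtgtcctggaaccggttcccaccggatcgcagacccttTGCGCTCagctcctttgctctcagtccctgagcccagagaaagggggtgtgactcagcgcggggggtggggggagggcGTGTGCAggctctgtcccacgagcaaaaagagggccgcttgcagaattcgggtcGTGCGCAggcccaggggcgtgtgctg
A match is a description of the letters and not a bound site. Mt1 held 3 matches and Mt2 held 4, none overlapping another. Of all 27025 genes with a window, 1.99% had 3 or more matches and 26.6% had 1 or more. Among the 8161 tested genes with a window, 38.7% had 1 or more. Both windows were shown partly because they hold several matches, so these shares are background and no test of the 2 genes.

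Of 24 tested genes that handle metals, 5 rose and 3 fell (5 and 3 without Resist library 5), 13 changes lay above 0 and 11 below, and the median was 0.03. Mt1 was read at 1165, 1231, 1102, 1117 and 1218 FPKM in naive libraries 1 to 5 and 476, 646, 535, 661 and 580.4 FPKM in Resist libraries 1 to 5, and fell by 1.02 (SE 0.09, limma adjusted p = 4.94e-05). Mt2 was read at 1459, 1372, 1520.5, 1245 and 1319.8 FPKM in naive libraries 1 to 5 and 573, 937, 644, 756 and 596 FPKM in Resist libraries 1 to 5, and fell by 1.00 (SE 0.12, limma adjusted p = 0.000366). Both lost about the same share, with ratios of naive to Resist means of 2.01 and 1.97, and every Resist library was well below every naive one. Slc39a10, a zinc importer, fell by 0.61, whereas Slc39a4, another importer, rose by 0.69 from levels near 1 FPKM. The call of Slc39a10 was lost in 3 of the 10 leave-outs, with changes down to -0.55. Fth1, the heavy chain of ferritin, was read at 830.0, 831, 753, 926 and 926 FPKM in naive libraries 1 to 5 and 1583, 1357, 1254, 1404 and 1204 FPKM in Resist libraries 1 to 5, and rose by 0.67 (SE 0.09, limma adjusted p = 0.000462). Cp, the ferroxidase ceruloplasmin, rose by 1.08. Ftl1, the ferritin light chain, had a log2 change of 0.03 and was not called. Fth1, Ftl1 and the metallothioneins have close copies or pseudogenes, and how reads were shared among copies is not given in the sources used here.

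The same kind of window was searched for the core of the hypoxia response element, ACGTG or GCGTG, on both strands. It was present in all 6 of the 8 falling hypoxia genes that had a window, in all 13 tested hypoxia genes with a window whichever way they went, and in 68.4% of the 8161 tested genes with one. The sterol regulatory element TCACNCCAC was in 0 of the 4 falling cholesterol genes that had a window and in 1.36% of tested genes, and 5 of the 9 had no window in the table. The core of the antioxidant response element, TGACNNNGC on either strand, was in 1 (Abcc4) of the 8 drug-handling genes that rose and had a window, or 12.5%, and in 15.7% of tested genes.

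**Figure D4:**
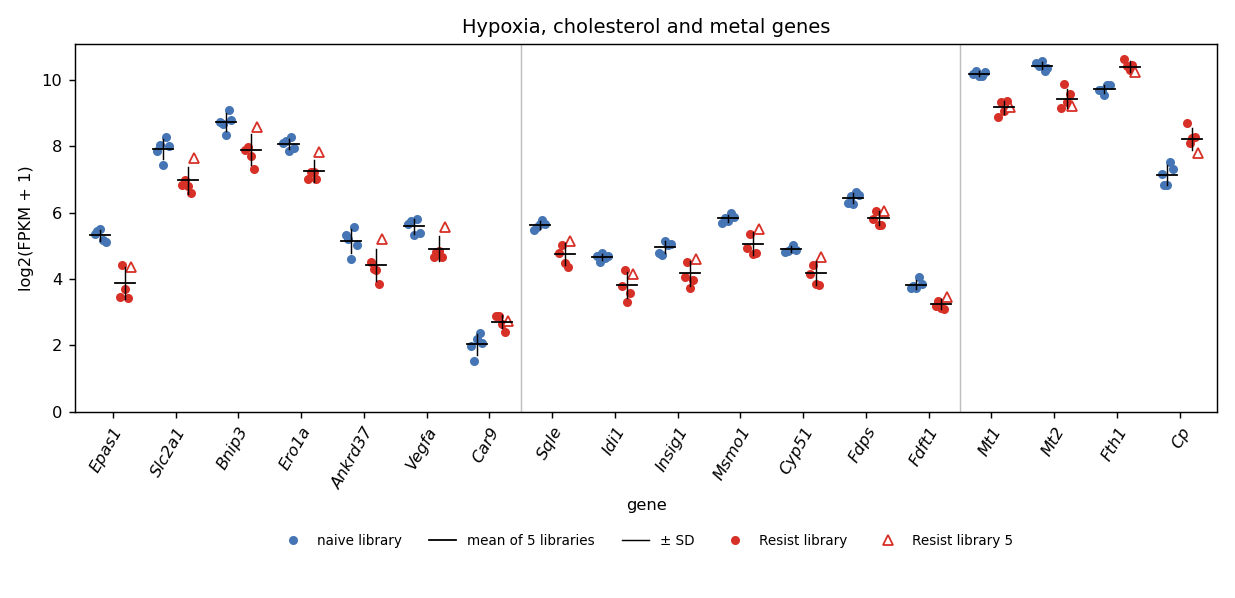
Levels of 18 genes as log2(FPKM + 1) on the y axis, 1 point per library, with each group's mean and a bar of 1 SD to each side (n = 5 per group). Hypoxia genes stand on the left, cholesterol genes in the middle and metal genes on the right, and Resist library 5 (open triangle) is close to the naive libraries for Bnip3, Ero1a and Vegfa and away from them for Epas1, Mt1 and Mt2.

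Many enzymes and pumps that oxidize, conjugate or export small molecules were higher. Of 36 listed, 19 were tested, 10 were called higher and 2 lower with or without Resist library 5, and the median was 0.66. Aldh1a7, an aldehyde dehydrogenase, was read at 14.9, 16.3, 13.8, 23.3 and 14.5 FPKM in naive libraries 1 to 5 and 96.3, 59.6, 61.2, 86.8 and 70.0 FPKM in Resist libraries 1 to 5, and rose by 2.11 (SE 0.16, limma adjusted p = 2.73e-05). Aldh1a1, which makes retinoic acid and is widely used as a marker of stem-like tumor cells, was read at 343, 313, 306, 401 and 338 FPKM in naive libraries 1 to 5 and 739, 660.1, 599.5, 639 and 739 FPKM in Resist libraries 1 to 5, and rose by 0.99 (SE 0.09, limma adjusted p = 4.94e-05). In both genes Resist library 5 was as high as the other Resist libraries. Aldh1a1 and Aldh1a7 are near-identical neighbors, so reads could have been shared between them. Ephx1, an epoxide hydrolase, rose by 1.81, Cbr2, a carbonyl reductase, by 1.67, Aldh3a1 by 1.60, Ugt1a6a, a glucuronosyltransferase, by 1.31, and Sult1a1, a sulfotransferase, by 0.80. For Aldh3a1 and Sult1a1, Resist library 5 lay within or below the naive range, and Sult1a1 lost its call in 9 of the 10 leave-outs, with changes down to 0.68.

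The efflux pumps of the Abcc family split. Abcc5, Abcc3 and Abcc4 rose by 1.18, 1.04 and 0.66, and Abcc2 was read at 35.8, 32.6, 41.2, 34.1 and 52.3 FPKM in naive libraries 1 to 5 and 13.5, 21.3, 13.8, 27.5 and 27.1 FPKM in Resist libraries 1 to 5, and fell by 0.94 (SE 0.20, limma adjusted p = 0.00871). Cyp2s1, a cytochrome P450, fell by 0.81, and Por, the reductase that serves the cytochromes and the member with the highest level, had a log2 change of -0.37, under the fold threshold. Among 31 antioxidant and glutathione genes tested, 3 were called higher and 2 lower, with a median of -0.05 (5 and 2 without Resist library 5). The glutathione transferases Gstm1, Gstm2 and Mgst2 rose by 1.38, 1.33 and 1.19, and Gstm5 fell by 0.77, a call lost without naive library 4 or Resist library 3 (down to -0.63). The Gstm genes are close paralogs. Hmox1, heme oxygenase and a classical target of NRF2, fell by 0.83.

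**Figure D5:**
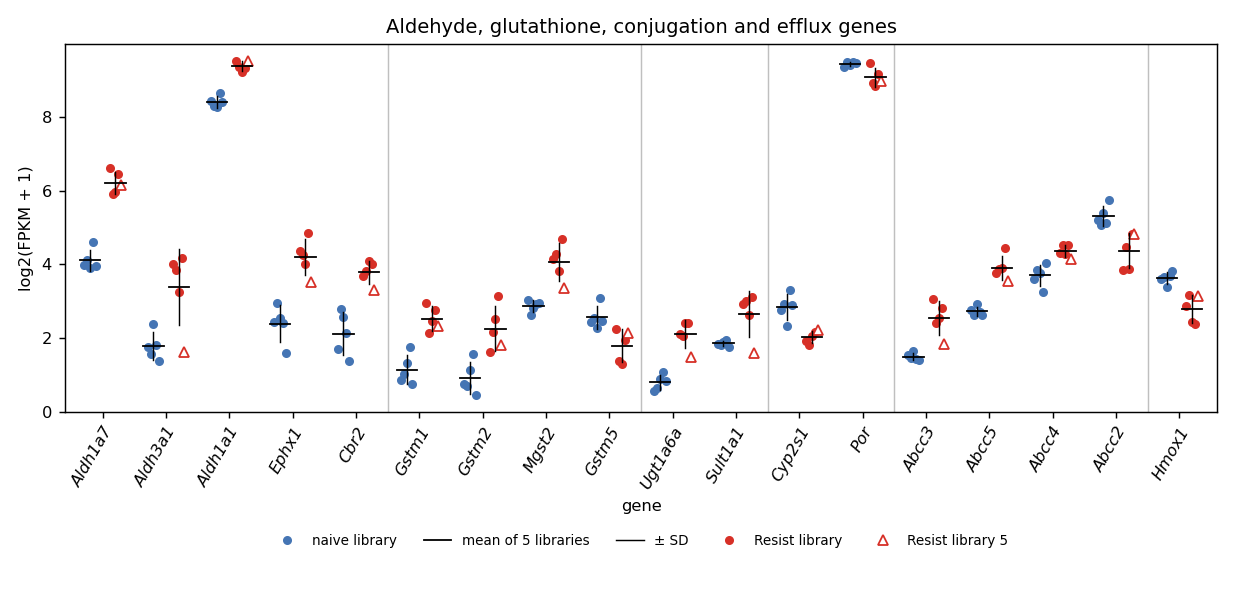
Levels of 18 genes as log2(FPKM + 1) on the y axis, 1 point per library, with each group's mean and a bar of 1 SD to each side (n = 5 per group). From left to right stand aldehyde, epoxide and carbonyl enzymes, glutathione transferases, conjugating enzymes, the cytochrome P450 pair, efflux pumps and Hmox1, and the direction differs within the transferases and within the pumps.

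Other metabolic and survival lists had few calls. Of 48 genes of nitrogen, amino acid and polyamine metabolism tested, 3 were called higher and 0 lower (4 and 0 without Resist library 5). This share is near the 5.25% of all genes tested that were called higher. The 3 were Cps1, which passed the filter only through the Resist group, the transporter Slc43a2 (0.77) and Gldc, the glycine decarboxylase (0.67). Slc43a2 was read at 9.67, 9.30, 9.69, 9.44 and 11.4 FPKM in naive libraries 1 to 5 and 17.3, 22.9, 19.8, 22.7 and 8.99 FPKM in Resist libraries 1 to 5. Resist library 5 lay below every naive library for this gene, and its call was lost without Resist library 3 or Resist library 4, with changes down to 0.67. Atp2b4, a calcium pump of the plasma membrane, was read at 3.79, 4.94, 3.66, 5.15 and 2.70 FPKM in naive libraries 1 to 5 and 20.6, 8.91, 19.9, 26.5 and 14.8 FPKM in Resist libraries 1 to 5, and rose by 1.87 (SE 0.24, limma adjusted p = 0.000462). S100a16 rose by 0.78, and these were the only calls among 23 calcium genes tested, with 3 called higher without Resist library 5. Among p53 targets and the Bcl2 family, the survival gene Bcl2 rose by 0.74 and the death-promoting Bmf by 0.66, a call lost in 6 of the 10 leave-outs with changes down to 0.48. That list of 29 tested genes had 2 higher and 1 lower, the lower one being Gdf15 (named above), and 3 and 0 without Resist library 5. Ncam1, a neural adhesion molecule, rose by 1.00, and no other of the 9 neuroendocrine and plasticity genes tested was called.

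Lists of the growth machinery had few calls. Among 66 cell cycle genes tested, the inhibitor Cdkn2c rose by 0.81 and E2f2 fell by 0.82, and no mitotic gene was called. At an unadjusted p under 0.05, 3 cell cycle genes were higher and 19 lower, and the noise comparison called 1 higher and 0 lower. In S phase and G1, 27 of 35 changes lay below 0, with a median of -0.26. Mki67, the proliferation marker, was read at 14.6, 14.6, 19.5, 12.4 and 14.3 FPKM in naive libraries 1 to 5 and 9.63, 15.2, 16.6, 15.6 and 15.9 FPKM in Resist libraries 1 to 5, and Myc at 142, 176, 169, 151 and 170.3 FPKM in naive libraries 1 to 5 and 158, 143, 172, 198 and 176 FPKM in Resist libraries 1 to 5. Neither was called, with log2 changes of -0.05 and 0.06. Without Resist library 5, 6 genes of S phase and G1 were called lower. Of 79 ribosomal protein genes, 78 changes lay below 0 with a median of -0.17, and only Rpl29 was called, lower by 0.60. After correction for transcript length the median was -0.10 and 66 lay below 0, and after quantile normalization -0.06 and 55. Among respiratory chain genes, 1 of 75 was called, Cycs, lower by 0.60, and the median was -0.13 as deposited and -0.04 after the length correction. Rpl29 and Cycs, both near the fold threshold, each lost their call in 4 of the 10 leave-outs, with changes down to -0.55 and -0.54. Of 48 ribosome biogenesis and Myc target genes, limma called 0 and the noise comparison 0, although 27 were lower and 2 higher at an unadjusted p under 0.05, with a median of -0.20 (1 and 0 without Resist library 5).

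Stress and interferon genes had few calls. Of 41 chaperones and genes of the unfolded protein response tested, Hspb1 and Chac1 fell by 0.59 and 0.62, calls lost in 3 and 7 of the 10 leave-outs with changes down to -0.49 and -0.50. Of 47 interferon-stimulated genes tested, Irf8, Ube2l6 and Ifi47 rose by 0.92, 0.90 and 0.74, a share near that of all genes, and 8 were called higher without Resist library 5, in which Ifi47 was read at 0.91 FPKM against 3.47 to 3.75 FPKM in the other Resist libraries. Ifi47 lost its call in 9 of the 10 leave-outs, with changes down to 0.66. Among 14 genes of antigen presentation tested, limma called 0 and the noise comparison 0, 3 were higher at an unadjusted p under 0.05, and B2m, the light chain of MHC class I, had a log2 change of 0.09.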

How the data were processed

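Poly(A) RNA of the sorted tumor cells was sequenced on a BGISEQ-500 instrument. The submitters' processing notes name Bowtie2 and the mouse build mm9, and the rest of the read processing is not given in the sources used here. The authors deposited 1 table of log2(FPKM + 1) values for 17485 genes. FPKM was recovered by reversing the logarithm, which gave values of 2 decimals throughout (tolerance 0.001). Neither counts nor depth can be had from it, so no interval from counting was made. The 752 rows of predicted transcripts, 7.47 to 8.97% of the FPKM of a library, were dropped, which left 16733 genes.

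Groups came from the labels. Genes that averaged 1 FPKM or more were fitted with limma 3.58.1 (R 4.3.3, moderated test with a trend in the variance) on log2(FPKM + 1), with no covariate. P-values were adjusted by Benjamini-Hochberg over all 10119 genes, and calls needed an adjusted p under 0.05 and a fold over 1.5. Fits were tested on simulated data. Alternatives were a pseudocount of 0.1, a filter at 5 FPKM or none, median-ratio scaling, quantile normalization, a fold of 2, no trend, a replicate block, a correction for transcript length (spline with 4 degrees of freedom), the omission of each library, and a noise comparison. The noise comparison set the fold and the FPKM difference of each gene together against those between libraries of the same group. It called genes at a probability over 0.8 and a fold over 1.5. Because the FPKM difference counts, genes with low levels are less easily called by it.

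The libraries, gene lists and tests were chosen with earlier results of these data known. Named by rule were the 15 largest changes in each direction among called genes without overlap, up to 6 called members of each list, the gene with the highest level of each list, and Nr3c1, Fn1, Itga5, Lamb2, Src, Inhba, Myc, Mki67, Vim, Cdh1, Krt8 and Krt18. Further called list members and any other gene were chosen after their values were seen. Some genes that the rule names are not reported here. Promoter windows of RefSeq genes (GRCm38.p6) were matched by symbol, and no mm9 coordinates were used.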

Additional observations from a re-analysis of the deposited data

Results flagged for a closer look

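In 344 groups of 5 libraries, 172 named genes in each of 2 groups, a library was flagged when its gap to the nearest library of its group, as a share of the group's range of log2(FPKM + 1), was above Dixon's critical value of 0.71. The test flagged 17 groups, where chance gives about 17.2. Resist library 5 made up 4 of them. It was low for Ifi47 (0.933 of the range), Tgfb3 (0.803) and Crispld2 (0.718), and high for Ero1a (0.727). Resist library 1 was low for Mki67 (0.831) and high for Smad6 (0.717). Resist library 2 was high for Itga6 (0.758) and Spp1 (0.720), and Resist library 4 was high for Fgb (0.740) and Notch4 (0.749). Among naive libraries, library 5 was high for Fga (0.752) and Slc43a2 (0.799) and low for Krt7 (0.816). Naive library 2 was high for Maf (0.789) and Fosl2 (0.865), naive library 3 for Cldn4 (0.829), and naive library 1 for Nr3c1 (0.845), where its level was 0.22 FPKM against 0.01 to 0.04 FPKM in the other naive libraries.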

How the results depend on the processing

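The count of 643 called genes moved by over 1.5 times under 3 settings. A filter at a mean of 5 FPKM, which tests fewer genes, gave 392 calls (303 higher), a fold threshold of 2 gave 219 (191 higher, 28 lower), and the noise comparison gave 359 (265 higher). Leaving out 1 library gave 527 to 840 calls, 429 to 683 higher and 98 to 157 lower, with the lowest total without Resist library 4 and the highest without Resist library 5. The shared replicate numbers did not pair the libraries: deviations of same-numbered libraries correlated at -0.16 to -0.028, and 0 naive libraries correlated best with their own number. A replicate block gave 624 calls, 613 of them shared with the fit without it. Of the 132 called genes named by rule, quantile normalization kept the calls of 120, median-ratio scaling 130, the length correction 125, the block 128 and the noise comparison 91, and 0 changed direction under any setting. Across the 10 leave-outs, 44 of 184 called genes lost their call at least once. Those lost without 1 library only were Steap2, Gldc and Dgat2 (Resist library 2), Sema4c, Flna, Efnb2 and Higd1a (Resist library 4), Porcn (naive library 1), Car9 (naive library 2), and Abcc4 and Slc39a4 (naive library 4).

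Some genes that were never called changed sign around 0, and the cause was not tested. Quantile normalization gave 0.067 for Sgk1, 0.024 for Dusp1, 0.051 for Oaz1 and 0.019 for Uchl1. Median-ratio scaling gave -0.0008 for Dag1, -0.0016 for Spint2 and -0.019 for Ftl1, and the length correction gave -0.015 for Notch2. Over the leave-outs, changes ran from -0.16 to 0.054 for Sgk1, -0.0037 to 0.10 for Dag1, -0.025 to 0.12 for Spint2, -0.20 to 0.38 for Fgb, -0.037 to 0.27 for B2m, -0.014 to 0.094 for Notch2 and -0.11 to 0.081 for Mki67. The file gives no counts, so the precision of low values is unknown, and each library pools 3 mice.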
